A study of Drosophila melanogaster with 38 samples.

Results

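CG10514, CG10513, CG11892, CG11889, CG11891, CG11893, CG10550 and CG10560 are 8 genes of the ecdysteroid kinase-like (EcKL) family of Drosophila melanogaster. They were selected by name on earlier results of these arrays, for a fall in restricted and switched flies and for movement together over time. The platform's annotation gave them 9 of the 18952 probe sets of the Affymetrix Drosophila 2.0 array, and the 7 with a mean log2 expression score of at least 6 over 36 arrays were kept, of 9420 probe sets kept in all. RNA came from the head and thorax of Canton-S females, with at least 75 females to a sample and 1 array for each cohort at each of 12 time points from 2 to 72 h. The SF (switched food) cohort ate control food up to age 40 days and restricted food from then on, and the hours count from that switch. The RF (restricted food) cohort had 50 g/L each of sucrose and yeast throughout, and the CF (control food) cohort had 150 g/L of each. All 3 cohorts were kept with 25 females and 25 males to a vial at 25 °C and were 40 days old at the start of sampling. Each time point pooled flies of a single cohort, so the spread over time points is not a spread between separately raised cohorts.

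EcKL genes encode proteins with a kinase-like fold related to that of choline kinases. The family takes its name from a silkworm enzyme that adds phosphate to ecdysteroids, the moulting hormones, which turns them into an inactive store that a phosphatase can release. In flies the family is large and fast-evolving, and some of its genes have been linked to the handling of plant toxins and insecticides rather than to hormones. The sources used here name no substrate for any of the 8 genes.

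The genes lie together. In the Release 6 annotation all 8 belong to an unbroken run of 26 protein-coding genes on chromosome arm 3R, and all 26 are EcKL genes. CG10513, CG10514 and CG11892 are next to each other near one end of that run, with CG11878 between them and the pair CG11889 and CG11891. CG11893, CG10550 and CG10560 are spaced further along it. CG11889 and CG11891 are read by a shared probe set, whose values belong to neither gene alone. The probe sets of CG11892 and CG10550, and the shared one, are of a type that can bind transcripts of related genes, so signal from a close relative in their values cannot be told apart. Of the probe sets kept, the shared one had the lowest mean score, 9.17, well above the limit of 6. CG11891's own probe set, with 5.76, was just outside the limit. A further probe set, shared by CG11893 and CG14354, had a mean score of 4.07 and was also left out.

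The lowest Pearson correlation between any pair of arrays was 0.74 and the highest was 0.99. Markers of other tissues were present beside those of the head and thorax. The mean score of 11 eggshell probe sets, for chorion and vitelline membrane genes, ran from 10.85 to 13.10 in SF, from 10.21 to 12.71 in RF and from 10.20 to 12.99 in CF. The mean of 11 midgut probe sets was also well above the limit, at 11.48 to 11.95 in SF, 11.73 to 12.11 in RF and 11.52 to 11.89 in CF. One of them, Amyrel, was near the limit, averaging 6.36 in SF, 5.88 in RF and 6.32 in CF. Photoreceptor and flight muscle markers, which define the head and the thorax, were present on every array. In such a mixture fewer cells of a type and less RNA per cell cannot be told apart. The photoreceptor mean rests on only 2 probe sets, those of Arr2 and trp, and the flight muscle mean on 4. Those 4 did not move together in RF minus CF, with Act88F at -0.75, TpnC4 at 0.94, fln at 0.50 and up at 0.47.

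The fall in restricted and switched flies was a property of the 3 adjacent genes and not of all 8. CG10513, CG10514 and CG11892 had lower scores in SF and in RF than in CF, and the SF level was the lowest of all from 18 h on. CG10550 was a little lower in RF, and CG10560, CG11893 and the probe set shared by CG11889 and CG11891 had RF means within 0.08 of CF on the log2 scale. The differences from CF were among the values on which the genes were chosen, so they are given as a description, and no p-value is given for them.

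CG11892 spanned the widest range. In SF its scores ran from 8.91 at 24 h to 11.06 at 12 h, with a median of 9.75. In RF they ran from 9.15 to 10.82, with a median of 10.56, and in CF from 10.30 to 11.62, with a median of 11.18. The groups overlapped over the whole course, but all 6 SF scores from 24 h on were below every CF score. Time by time SF was below CF at 12 of 12 points and RF was below CF at 12 of 12. The mean difference was -1.26 ± 0.74 for SF minus CF and -0.70 ± 0.30 for RF minus CF (SD, n = 12 time points each), a ratio of 0.418 for SF to CF and 0.614 for RF to CF.

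CG10514 followed nearly the same course. Its SF scores ran from 9.22 at 48 h to 11.01 at 12 h, with a median of 9.90, its RF scores from 9.54 to 10.84, with a median of 10.59, and its CF scores from 10.36 to 11.54, with a median of 11.06. SF was below CF at 11 of 12 time points, with 12 h as the exception, and RF was below CF at all 12. The mean difference was -1.04 ± 0.65 for SF minus CF and -0.53 ± 0.23 for RF minus CF (SD, n = 12 each).

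CG10513 had a narrower range in CF than CG11892 or CG10514 did. In SF it scored 10.14 at 2 h, 9.44 at 6 h, 9.94 at 8 h, 9.58 at 12 h, 8.95 at 24 h and 8.36 at 40 h, its lowest score. The RF scores ran from 8.92 to 10.28, with a median of 9.42, and the CF scores from 9.74 to 10.44, with a median of 10.05. The mean difference was -0.80 ± 0.54 for SF minus CF and -0.55 ± 0.32 for RF minus CF (SD, n = 12 each). RF was below CF at 12 of 12 time points, by as little as 0.04 at 4 h and as much as 1.01 at 72 h.

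**Figure D1:**
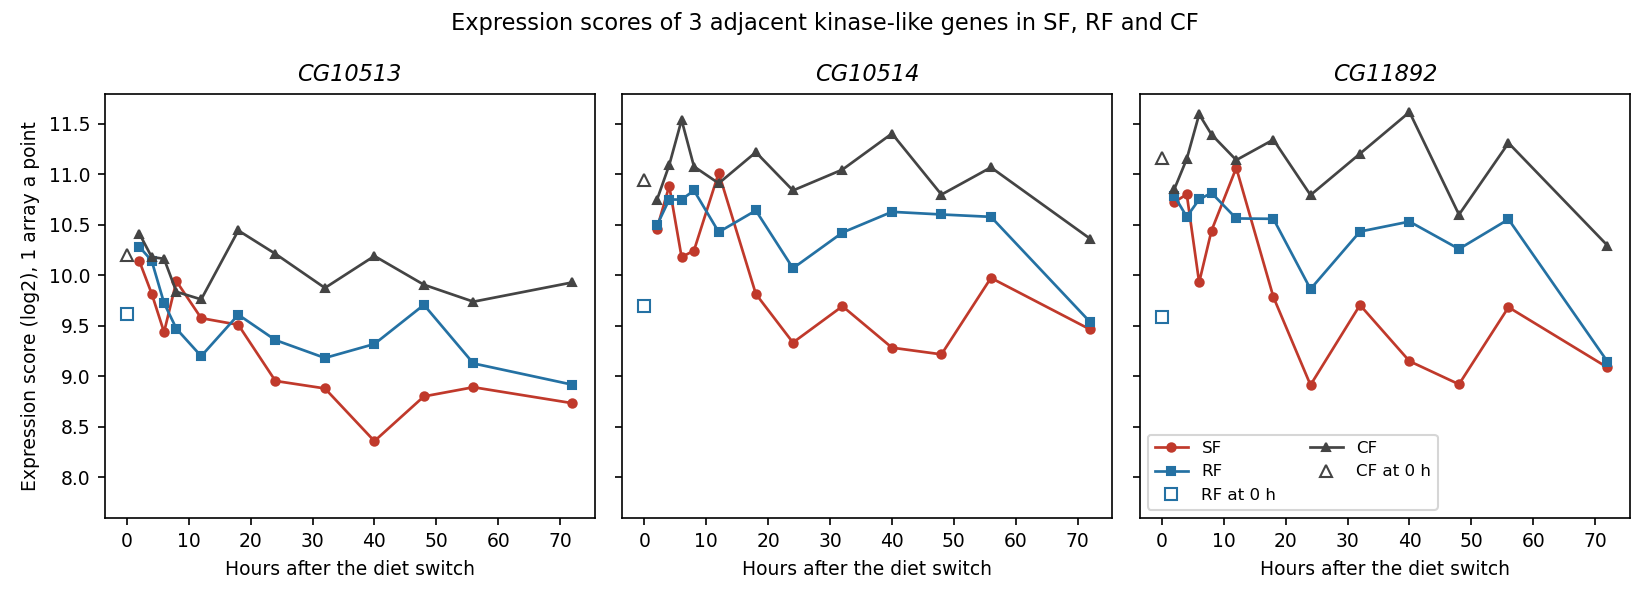
Log2 expression scores of CG10513, CG10514 and CG11892 (vertical axis) against hours after the diet switch (horizontal axis), 1 array a point, for SF (red circles), RF (blue squares) and CF (dark triangles), with the RF and CF arrays at 0 h as open symbols. The SF line drops below RF from 18 h on and lies below every CF score from 24 h on, and the SF scores of CG10514 and CG11892 are highest at 12 h.

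In SF the 3 genes differed from each other in the first 12 h and were all below CF from 18 h on. At 2 and 4 h the SF minus CF differences of the 3 lay between -0.36 and -0.13. At 6 h the SF minus CF difference was -1.66 for CG11892, -1.36 for CG10514 and -0.73 for CG10513. At 8 h it was -0.95 for CG11892 and -0.83 for CG10514, but 0.10 for CG10513, which was above CF. At 12 h it was -0.08 for CG11892, 0.10 for CG10514 and -0.19 for CG10513, and from 18 h on it was negative at every time point. The tissue markers differed between these arrays too. At 6 and 8 h the eggshell mean was 12.45 and 13.10 in SF, against 11.63 and 11.12 in CF. The photoreceptor mean was 11.10 and 10.36 in SF, against 11.82 and 11.68 in CF. At 12 h the eggshell mean was 10.85 in SF and 11.92 in CF. The part of tissue makeup in these early differences was not tested. The mean SF minus CF difference over 24 to 72 h was -1.73 ± 0.43 for CG11892, -1.43 ± 0.43 for CG10514 and -1.21 ± 0.34 for CG10513 (SD, n = 6 each), against -0.79 ± 0.71, -0.66 ± 0.63 and -0.40 ± 0.38 over 2 to 18 h (SD, n = 6 each). The lowest difference of each gene fell at 40 h, at -2.47 for CG11892, -2.12 for CG10514 and -1.83 for CG10513.

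The mean of fat body markers followed these genes over all arrays and within SF, but not within RF. Its r over the 36 arrays was 0.69 with CG11892, 0.68 with CG10514 and 0.61 with CG10513. In the same order r was 0.73, 0.78 and 0.56 within SF. Within RF it was 0.17, 0.18 and 0.21, and within CF 0.71, 0.64 and -0.06. The mean score of 7 fat body probe sets (yolk proteins, lipoproteins, Lsp2 and fit) had a median of 13.08 in SF (12.78 to 13.67), 12.96 in RF and 13.58 in CF, and the RF range of 12.73 to 13.33 lay below the CF range of 13.34 to 13.79. In SF it was 13.67 at 4 h, 13.18 at 6 h, 12.79 at 8 h, 13.64 at 12 h and 13.09 at 18 h. All 7 probe sets were lower in SF than in CF on average, 3 of them called, where 1.25% of all probe sets were called lower. All 7 were also lower in RF than in CF, 4 of them called, against 2.65% of all. Lsp2 had the largest part in the shift of the mean, at -3.17 in RF minus CF and -2.17 in SF minus CF. In the same order fit changed by -0.70 and -0.50, Yp1 by -0.01 and -0.05, and Apoltp by -0.02 and -0.15. The share of the fat body in the samples and its part in the fall of the kinase-like genes was not tested.

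Among the 7 probe sets, 3 were called lower in SF than in CF by limma at an adjusted p of 0.05 and 0 were called higher, where 1.25% of all 9420 probe sets were called lower and 0.552% higher. In RF minus CF 4 were called lower and 0 higher, against 2.65% and 4.77% of all. Because the genes were picked from these contrasts, the counts describe that choice and are no test of it. The 3 in SF minus CF were the adjacent genes, and CG10550 was the fourth in RF minus CF. The median difference over the 7 was -0.36 in SF minus CF and -0.24 in RF minus CF, against 0.01 and -0.01 over all probe sets tested. The comparisons share the CF arrays, so they are not separate evidence of the same fall. At 2 to 18 h alone, on 6 pairs of arrays, 0 of the 7 were called in either of them. The share of all probe sets called in that window is not given here, so this 0 does not show a lack of early difference. CG10550 was no longer among the calls in RF minus CF at 24 to 72 h alone, with no limit on the mean, without the replicate block, by an unmoderated paired test, or without 2, 4, 6, 18, 32, 48, 56 or 72 h, while the other 3 were. In SF minus CF, CG10560 was called lower as well with array weights or without 4 h.

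CG10560 differed from the rest in pattern. Its SF scores ran from 9.93 to 11.01, with a median of 10.45, its RF scores from 9.85 to 11.31, with a median of 11.03, and its CF scores from 9.97 to 11.42, with a median of 10.89. The ranges overlapped almost fully, and RF minus CF was 0.03 ± 0.29 (SD, n = 12). SF minus CF was -0.36 ± 0.39 (SD, n = 12), and SF was below CF at 10 of 12 time points. All 3 cohorts had a low score at 18 h and again at 40 h, a feature noticed after the values were seen. The mean at those hours was 9.98 in SF, 10.02 in RF and 9.99 in CF, and over the other 10 time points it was 10.52 in SF, 10.98 in RF and 10.95 in CF.

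CG10550 changed little. Its SF scores ran from 10.73 to 11.57, with a median of 11.06, its RF scores from 10.66 to 11.31, with a median of 11.02, and its CF scores from 10.94 to 11.44, with a median of 11.22. RF was below CF at 12 of 12 time points, and RF minus CF averaged -0.24 ± 0.21 (SD, n = 12), but the ranges still overlapped. SF minus CF was -0.15 ± 0.27 (SD, n = 12), with SF below CF at 9 of 12 points. Over the 36 arrays its score had r = 0.74 with the fat body mean, 0.67 with the photoreceptor mean, 0.57 with the flight muscle mean and -0.57 with the eggshell mean, and the part of tissue makeup in its values was not tested.

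CG11893 was the single probe set with a higher mean in SF than in CF. Its SF scores ran from 8.95 to 10.07, with a median of 9.83, its RF scores from 8.70 to 10.23, with a median of 9.54, and its CF scores from 8.39 to 10.25, with a median of 9.46. SF minus CF was 0.30 ± 0.52 and RF minus CF was 0.08 ± 0.61 (SD, n = 12 each), and the groups overlapped. SF was above CF at all 6 points from 24 h on.

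The probe set shared by CG11889 and CG11891 had SF scores from 7.99 to 9.51, with a median of 9.09, RF scores from 8.29 to 9.62, with a median of 9.35, and CF scores from 8.63 to 10.08, with a median of 9.13. RF minus CF was 0.00 ± 0.40 and SF minus CF was -0.27 ± 0.58 (SD, n = 12 each). The SF difference came from the early hours, with -0.67 ± 0.55 over 2 to 18 h and 0.12 ± 0.26 over 24 to 72 h (SD, n = 6 each). Its lowest SF scores, 8.34 at 6 h and 7.99 at 8 h, fell on the arrays with a photoreceptor mean of 11.10 and 10.36 and an eggshell mean of 12.45 and 13.10. Over the 36 arrays its score had r = 0.75 with the photoreceptor mean and r = -0.56 with the eggshell mean, and the part of tissue makeup in its values was not tested.

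**Figure D2:**
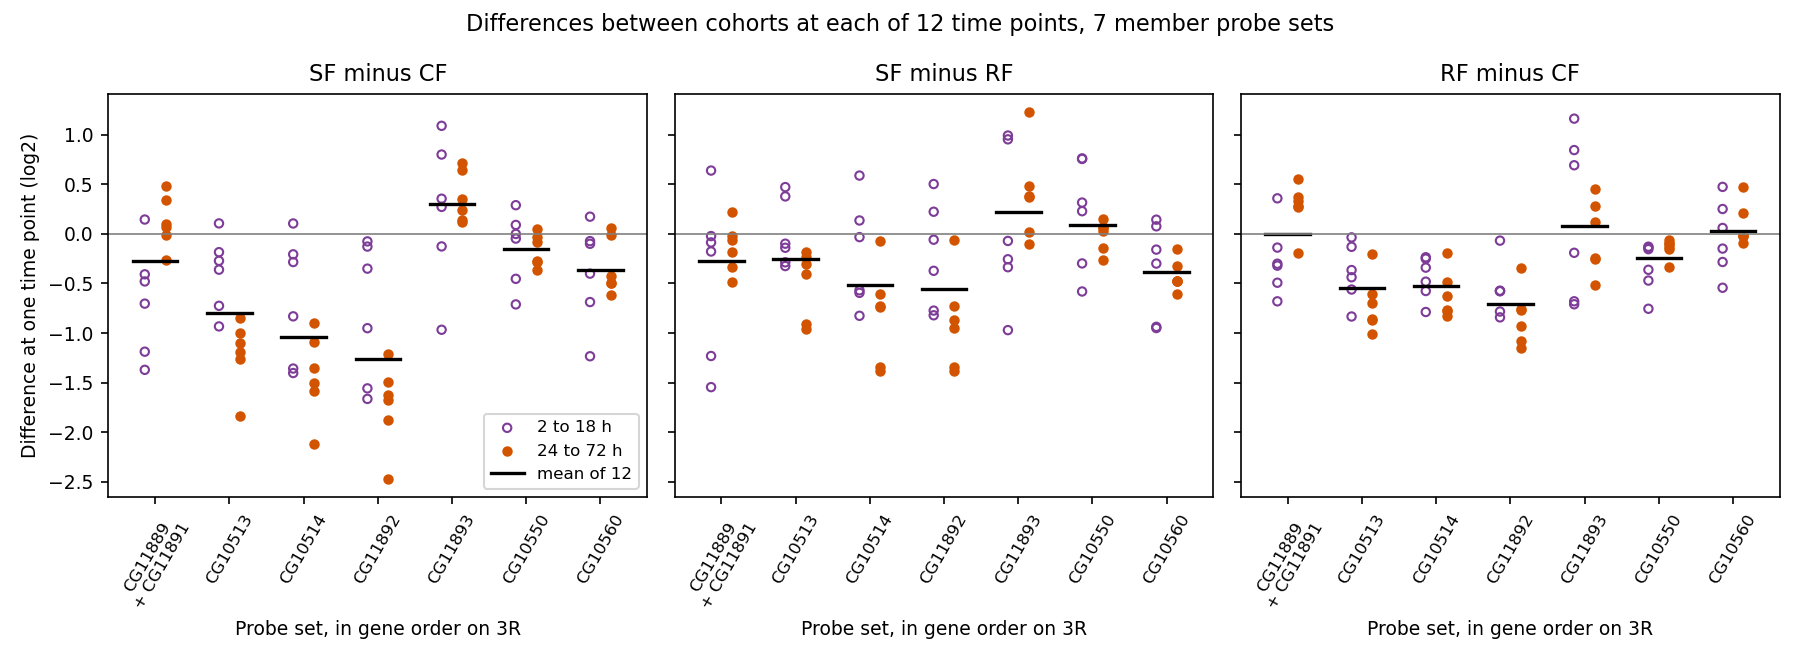
Differences between cohorts at each time point on the log2 scale (vertical axis) for the 7 probe sets in gene order (horizontal axis), with open points for 2 to 18 h, filled points for 24 to 72 h and a bar at the mean of 12. All filled points of CG10513, CG10514 and CG11892 lie below 0 in each comparison, and CG10560 has a mean of -0.36 in SF minus CF but 0.03 in RF minus CF.

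Switched flies were then set against flies kept on restricted food, a contrast not named in the choice of genes. It is made of the same SF and RF arrays, and choosing genes for a fall in SF can favour a negative difference, so its counts and p-values are not independent of that choice. SF and RF ate the same food during sampling and differed in their food up to day 40. Of the 7 probe sets, 1 was called lower in SF and 0 higher, against 1.51% called lower and 0.446% called higher over all 9420, and the median difference was -0.28, against 0.01 over all. The call was CG10560, which scored 10.43 ± 0.30 in SF and 10.82 ± 0.47 in RF (SD, n = 12 each). Its difference of -0.39 (SE 0.09, limma adjusted p = 0.0379) is a ratio of 0.765, and SF was below RF at 10 of 12 time points. The call was close to the threshold. It ended without 6, 8, 24, 32, 40, 48, 56 or 72 h (limma adjusted p = 0.0720, 0.0641, 0.0700, 0.0808, 0.0552, 0.0864, 0.0812 and 0.0795 in that order). The difference itself stayed between -0.44 and -0.34 with any 1 time point left out. The call also ended without the replicate block of shared hours (adjusted p = 0.251), with no limit on the mean (adjusted p = 0.0551), with each comparison adjusted on its own (adjusted p = 0.0714), with an unmoderated paired test (adjusted p = 0.0643) and at 2 to 18 h alone (adjusted p = 0.809), and it remained with the mean of the eggshell markers as a covariate (limma adjusted p = 0.0409). Within SF its score had r = -0.58 with the eggshell mean. Flight muscle and midgut markers also moved in this contrast, with 1 of 4 flight muscle probe sets called lower and 1 higher, and 2 of 11 midgut probe sets called lower and 1 higher. Their part in the difference of CG10560 was not tested.

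CG11892 and CG10514 had larger differences between SF and RF that did not pass the test. CG11892 averaged 9.85 ± 0.76 in SF and 10.40 ± 0.47 in RF (SD, n = 12 each), a difference of -0.55 (SE 0.16, unadjusted 95% interval -0.90 to -0.21, limma adjusted p = 0.0826). CG10514 averaged 9.96 ± 0.61 in SF and 10.48 ± 0.36 in RF (SD, n = 12 each), a difference of -0.51 (SE 0.15, interval -0.85 to -0.18, limma adjusted p = 0.0980). SF was below RF at 10 of 12 time points for each of them, and for both the exceptions were 4 and 12 h. Without 12 h both passed (-0.65, limma adjusted p = 0.0250 for CG11892 and -0.61, limma adjusted p = 0.0236 for CG10514), and without 4 h CG11892 did (-0.62, limma adjusted p = 0.0456).

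For the other probe sets the intervals of SF minus RF were wide. CG10513 had -0.25 (SE 0.11, interval -0.49 to -0.01, limma adjusted p = 0.322), the shared probe set of CG11889 and CG11891 had -0.28 (SE 0.16, interval -0.62 to 0.06, limma adjusted p = 0.462), CG11893 had 0.22 (SE 0.17, interval -0.14 to 0.59, limma adjusted p = 0.572) and CG10550 had 0.09 (SE 0.11, interval -0.14 to 0.32, limma adjusted p = 0.720). These intervals leave room for differences in either direction for 3 of the 4 and do not show that SF and RF were alike.

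At 24 to 72 h alone 4 of the 7 were called lower in SF than in RF, where 3.31% of all probe sets were, with the same limit on independence. CG11892 differed by -0.89 (SE 0.16, limma adjusted p = 0.0161), CG10514 by -0.81 (SE 0.16, limma adjusted p = 0.0224), CG10513 by -0.50 (SE 0.12, limma adjusted p = 0.0371) and CG10560 by -0.42 (SE 0.07, limma adjusted p = 0.0136), each lower in SF at 6 of 6 points. At 72 h the gap was small for CG11892 and CG10514, at -0.06 and -0.07. RF had its lowest score of the course at that hour, 9.15 for CG11892 and 9.54 for CG10514. The SF scores at 72 h were 9.09 for CG11892 and 9.47 for CG10514. Whether the difference grew was tested as the later minus the earlier window. It was -0.67 (SE 0.27) for CG11892, -0.59 (SE 0.27) for CG10514 and -0.50 (SE 0.19) for CG10513, and limma called 0 of the 7 and 0% of all probe sets (2 of the 7 and 193 of 9420 had an unadjusted p under 0.05).

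The arrays at 0 h were not used in choosing the genes and hold 1 RF and 1 CF sample, so they give values with no test. CG11892 scored 9.59 in RF and 11.16 in CF at 0 h, CG10514 scored 9.70 in RF and 10.95 in CF, and CG10513 scored 9.62 in RF and 10.20 in CF. RF was lower than CF for all 3, and for CG11892 and CG10514 by more than at any later hour. RF minus CF was -1.57 for CG11892 and -1.25 for CG10514 at 0 h, against lowest values of -1.15 for CG11892 and -0.82 for CG10514 from 2 to 72 h. At 0 h 3.55% of the 9420 probe sets were at least 2-fold lower in RF than in CF. The share with a 0 h difference outside the range of their later hours is not given here. The other probe sets had differences of -0.26 for CG10560, -0.18 for CG10550, 0.09 for CG11893 and 0.36 for the shared one, within their ranges at later hours.

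Shared movement over time was close for a single pair. CG10514 and CG11892 had r = 0.98 over the 36 arrays, and r = 0.97 within SF, 0.93 within RF and 0.94 within CF (12 arrays each). CG10513 had r = 0.80 with CG11892 over all arrays, but 0.85 within SF, 0.53 within RF and 0.10 within CF. For CG10560 the highest correlation with another member was 0.26 over the 36 arrays, and CG11893 was at -0.26 with both CG11892 and CG10514. In SF the shared probe set of CG11889 and CG11891 had r = 0.83 with CG11893, against 0.48 within RF and -0.25 within CF. These are descriptions over arrays that share their time points, diets and normalization, and movement together was among the grounds for choosing the genes. Any signal from CG10514 in the probe set of CG11892 cannot be told apart from that of CG11892 itself.

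**Figure D3:**
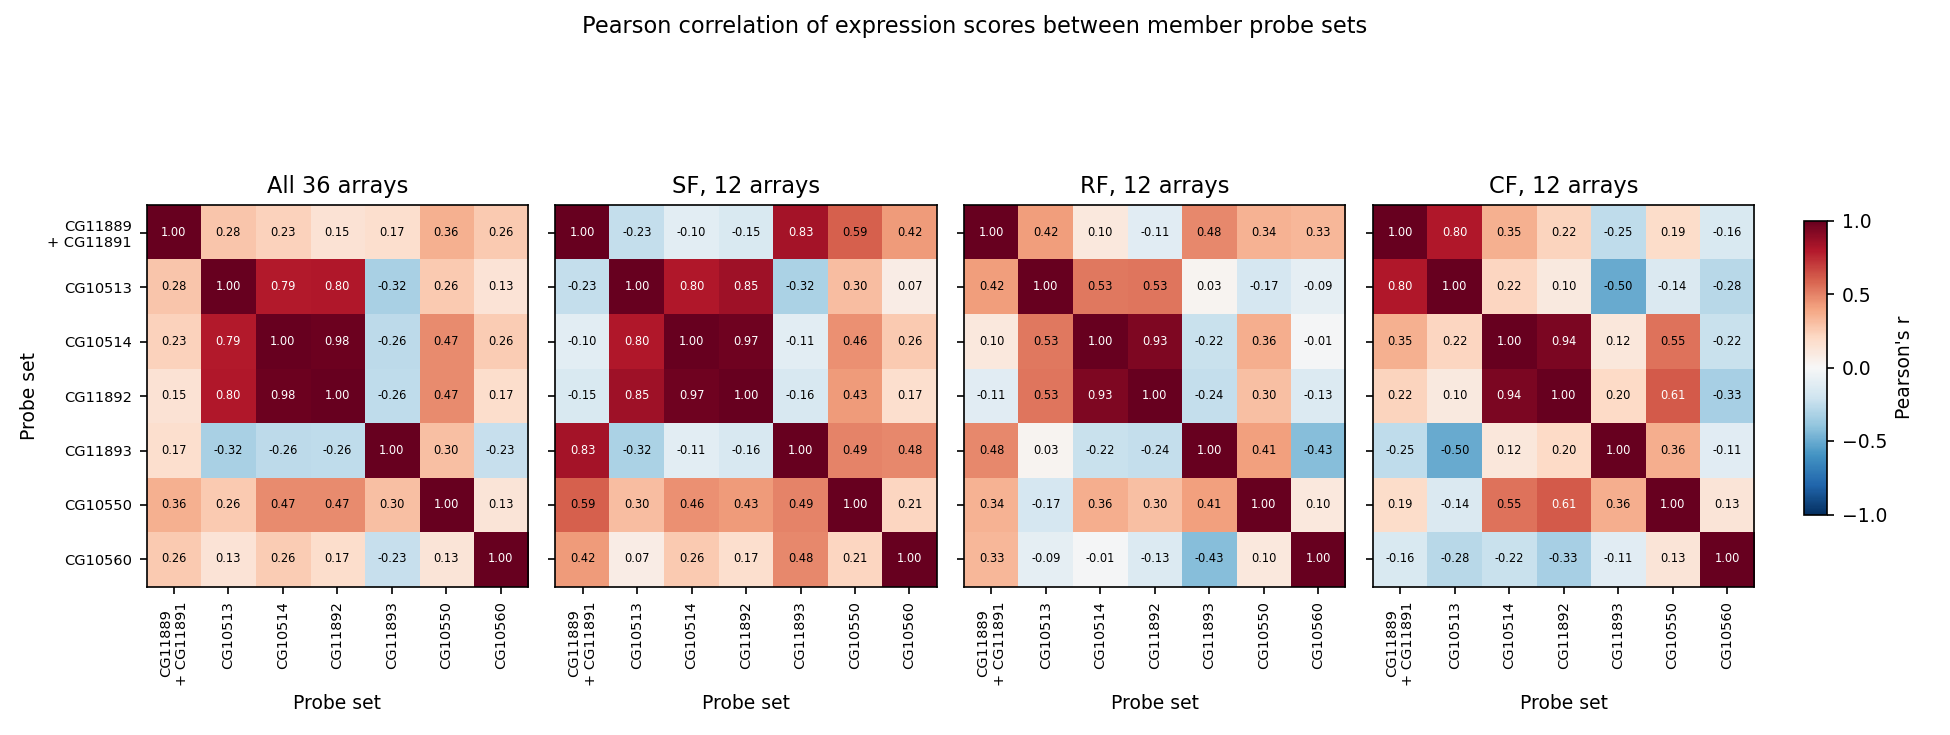
Pearson's r between the expression scores of each pair of the 7 probe sets (both axes, in gene order), over all 36 arrays and within the 12 arrays of SF, RF and CF, with red for positive and blue for negative values. CG10514 and CG11892 stay at 0.93 or above in every panel, while CG10513 is close to them in SF and not in CF.

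CG10514 and CG11892 were on average lower at 24, 48 and 72 h than at 32, 40 and 56 h, a feature chosen after its values were seen. It did not hold at 0 h in CF, the same clock hour, where CG11892 scored 11.16 and CG10514 10.95. In RF at 0 h they scored 9.59 and 9.70. Nor did it hold at each hour, as CG10514 in SF scored 9.28 at 40 h and 9.33 at 24 h. CG11892 averaged 8.97 ± 0.10 in SF, 9.76 ± 0.57 in RF and 10.56 ± 0.25 in CF at 24, 48 and 72 h (SD, n = 3 each). At 32, 40 and 56 h it averaged 9.51 ± 0.32 in SF, 10.51 ± 0.06 in RF and 11.38 ± 0.21 in CF (SD, n = 3 each). The difference between these sets of hours was -0.54 in SF, -0.75 in RF and -0.81 in CF for CG11892, and -0.31 in SF, -0.47 in RF and -0.51 in CF for CG10514. For their neighbour CG10513 it was 0.12 in SF, 0.12 in RF and 0.08 in CF.

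Genes outside the family came as close as CG10513 did. The 8 named genes with the highest mean r to CG10514 and CG11892 over the 36 arrays were Mur18B at 0.86, CG10863 at 0.86, kumpel at 0.85, CG32444 at 0.85, Mtap at 0.84, CG16727 at 0.84, CG7322 at 0.82 and CG15408 at 0.81. Mur18B encodes a mucin-related protein, kumpel a transporter of the sodium-coupled solute carrier family, and Mtap the methylthioadenosine phosphorylase of methionine salvage. All 8 had negative mean differences from CF, from -0.82 for CG32444 to -0.22 for Mtap in SF minus CF and from -0.62 for CG32444 to -0.17 for CG7322 in RF minus CF, as a gene that resembles CG10514 must. Within the family the closest was CG9259, at 0.87, ahead of CG10513 at 0.80 and CG32195 at 0.72, and neither CG9259 nor CG32195 lies in the run on 3R.

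The rest of the family gave no general fall. Of 43 other EcKL genes listed, 36 had 37 probe sets past the limit. In SF minus CF 2 were called lower and 2 higher, where 1.25% of all probe sets were called lower and 0.552% higher. In RF minus CF 2 were lower and 7 higher, against 2.65% and 4.77% of all. At 2 to 18 h alone, on 6 pairs of arrays, these calls all ended, and the share of all probe sets called there is not given here. The median difference was 0.02 in SF minus CF and 0.11 in RF minus CF, against 0.01 in SF minus CF and -0.01 in RF minus CF over all probe sets. In SF minus RF 0 of the 37 were called by limma (7 at an unadjusted p under 0.05, and 0 by an unmoderated paired test), with 31 differences negative and a median of -0.12.

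CG9259 and CG32195 fell in both. CG9259 changed by -0.69 in SF minus CF (SE 0.12, limma adjusted p = 0.00574, lower at 12 of 12 time points) and by -0.33 in RF minus CF (SE 0.08, limma adjusted p = 0.0325, lower at 10 of 12). CG32195 changed by -0.51 in SF minus CF (SE 0.12, limma adjusted p = 0.0247) and by -0.38 in RF minus CF (SE 0.05, limma adjusted p = 0.00123), lower at 12 of 12 points in each. For CG9259 the RF minus CF call ended without 4, 6, 12, 18, 24, 32, 40 or 56 h (limma adjusted p from 0.0513 to 0.0766), and for CG32195 the SF minus CF call ended without 18, 32, 40 or 72 h (limma adjusted p from 0.0526 to 0.0600). The RF minus CF call of CG9259 also ended at 24 to 72 h alone (adjusted p = 0.155), without the replicate block (adjusted p = 0.513) and by an unmoderated paired test (adjusted p = 0.0609), and its SF minus CF call without the block (adjusted p = 0.141). The SF minus CF call of CG32195 also ended by the paired test (adjusted p = 0.0519) and with separate adjustment (adjusted p = 0.0561). CG16898 had -0.61 in each comparison and was not called (limma adjusted p = 0.172 in SF minus CF and 0.0536 in RF minus CF).

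CG9498 and CG31974 rose in both comparisons, by 0.37 (SE 0.09, limma adjusted p = 0.0373) and 0.41 (SE 0.07, limma adjusted p = 0.00378) in SF minus CF and by 0.36 (SE 0.05, limma adjusted p = 6.98e-04) and 0.30 (SE 0.04, limma adjusted p = 0.00139) in RF minus CF. The SF minus CF call of CG9498 ended without 4, 18, 24, 32, 40, 48, 56 or 72 h (limma adjusted p from 0.0610 to 0.0856), and also with no limit on the mean (adjusted p = 0.0528), separate adjustment (adjusted p = 0.0813), an unmoderated paired test (adjusted p = 0.0643) and no block (adjusted p = 0.130). The other 5 that rose in RF minus CF all lie in the run on 3R, between or beside the members, namely CG31288 (0.45), CG13659 (0.44), CG31097 (0.41), CG31102 (0.30) and CG10553 (0.27). Their SF minus CF differences did not pass the test. The call of CG31102 ended without 24, 40, 56 or 72 h (limma adjusted p from 0.0518 to 0.0560). Without the replicate block 5 of the 7 higher calls in RF minus CF ended, those of CG9498 (adjusted p = 0.175), CG31102 (adjusted p = 0.0858), CG31288 (adjusted p = 0.0610), CG10553 (adjusted p = 0.247) and CG13659 (adjusted p = 0.148).

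Along the run, then, the low block was short. Of its 25 probe sets tested, members included, 4 were called lower in RF minus CF, and all 4 were members chosen for a fall in this contrast. Among the 18 probe sets of other EcKL genes in the run 0 were called lower and 5 higher, against 2.65% and 4.77% of all probe sets. Over the 25 probe sets 18 had a positive difference. CG31300, the gene after CG11892, had differences of 0.19 in SF minus CF and 0.22 in RF minus CF, and CG11878, on the other side of CG10513, had -0.16 in SF minus CF and -0.01 in RF minus CF, none of them called. CG10559, CG10553 and CG10562, the neighbours of CG10560, had SF minus RF differences of -0.28 (SE 0.11), -0.21 (SE 0.09) and -0.07 (SE 0.09), not called. In SF minus RF 22 of the 25 differences were negative and 1, that of CG10560, was called lower, where 1.51% of all probe sets were. Among the 10 genes flanking the run, 5 on either side, 9 had differences from CF of at most 0.20 in size, and tobi, an alpha-glucosidase-like target of insulin signalling, was called at -0.93 in RF minus CF (SE 0.09, limma adjusted p = 6.13e-05) and was -0.22 in SF minus CF.

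**Figure D4:**
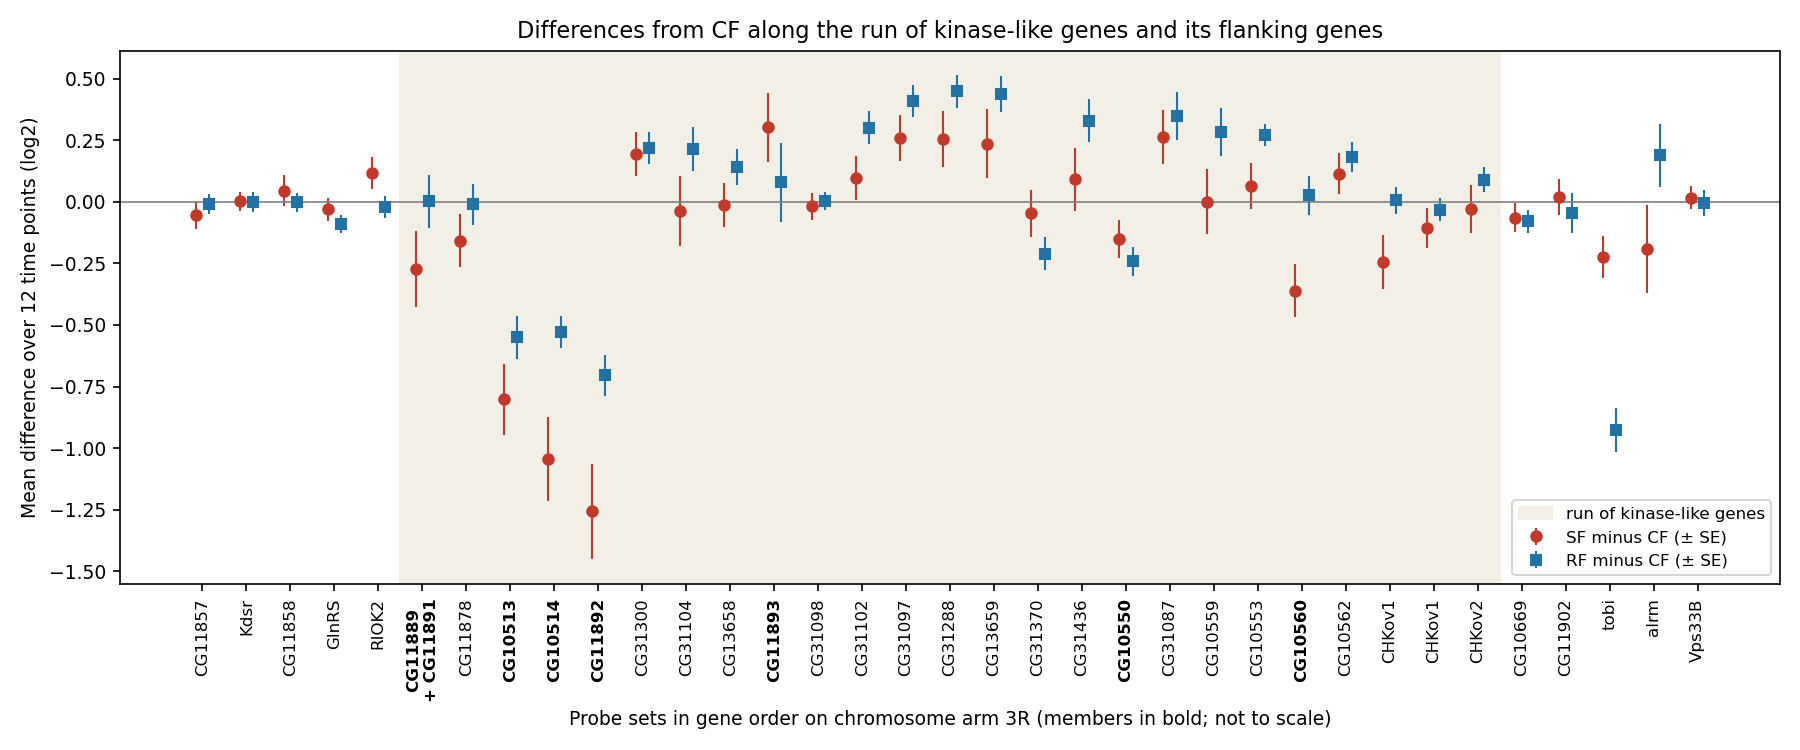
Mean differences from CF over 12 time points on the log2 scale, with bars of ± SE (vertical axis), for SF minus CF (red circles) and RF minus CF (blue squares) of each probe set in gene order on 3R (horizontal axis, members in bold). The low block is the 3 adjacent genes CG10513, CG10514 and CG11892, and most of the other family genes on the shaded run lie at or above 0 in RF minus CF.

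Calls among genes that inactivate or answer to ecdysteroids could not be told from the shares over all probe sets. Of 29 ecdysteroid genes listed, 11 had 17 probe sets past the limit, and most of the synthesis genes had none and were not tested. Some listed genes were missing for reasons other than their score. The synthesis gene phm and the import gene EcI were not matched to a gene ID, and the response genes Eip74EF and Eip75B had no probe set of their own. In SF minus CF 0 of the 17 were called by limma (1 at an unadjusted p under 0.05, and 0 by an unmoderated paired test), and in SF minus RF likewise 0 (3 at an unadjusted p under 0.05, and 0 by an unmoderated paired test). Over all probe sets 1.25% were called lower and 0.552% higher in SF minus CF, and 1.51% and 0.446% in SF minus RF. In RF minus CF 1 of the 17 was called lower and 1 higher, against 2.65% and 4.77% of all probe sets. With 17 probe sets these counts do not set the list apart from those shares. MsrA, known as Eip71CD and induced by ecdysone, changed by -0.70 (SE 0.06, limma adjusted p = 4.99e-05), and Epp, which encodes an ecdysteroid phosphate phosphatase, changed by 0.26 (SE 0.05, limma adjusted p = 0.0111). The MsrA call ended at 2 to 18 h alone (adjusted p = 0.136). The call of Epp ended with the 0 h pair added (adjusted p = 0.0944), at 2 to 18 h alone (adjusted p = 0.444), at 24 to 72 h alone (adjusted p = 0.0599) and without the replicate block (adjusted p = 0.0798).

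The receptor genes and the inactivating P450 gene did not pass the test. EcR, the ecdysone receptor gene, had -0.02 (SE 0.11) in SF minus CF and 0.04 (SE 0.09) in RF minus CF. The gene of its partner usp had 0.03 (SE 0.07) in SF minus CF and 0.00 (SE 0.06) in RF minus CF. Cyp18a1 had 0.08 and 0.06 on its 2 probe sets in SF minus CF and 0.08 on each in RF minus CF.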

How the data were processed

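RNA of the head and thorax of pooled females was measured on Affymetrix Drosophila 2.0 arrays. Per the methods, the authors PVAC filtered, quantile normalized and summarized the arrays with Robust Multichip Analysis (RMA). The deposited values are these log2 expression scores, per probe set and array, and the deposited table still held all 18952 probe sets, 183 of them controls that were left out here. Software versions and the genome build are not given in the sources used here. Scores of different probe sets were not set against each other.

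The members and lists were chosen with earlier results of these data known. Probe sets were named from the platform annotation, and 12449 of its 12551 gene IDs matched RefSeq (Release 6), which gave current symbols and gene order. In all 13647 probe sets had 1 gene, 402 had several and 4720 had none. The 8 members by name, listed genes called in any comparison, CG10553, CG10559, CG10562, EcR, usp and Cyp18a1 in any case, the 8 genes most like CG10514 and CG11892 and the 5 genes flanking the run on either side were to be named.

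Probe sets with a mean of at least 6 over the 36 arrays at 2 to 72 h (9420) were fitted in limma 3.58.1 (R 4.3.3) on differences between arrays of the same hour, which the labels give, with 1 Benjamini-Hochberg adjustment over all 3 comparisons and a threshold of 0.05. Deviations from the cohort means of arrays of the same hour had a median r of 0.512 for RF and CF, 0.147 for SF and CF, and 0.071 for SF and RF, with single pairs from -0.681 to 0.714. The fit was tested on simulated data, in which arrays of the same hour shared an effect of that hour in all cohorts. That setting does not cover pairs with a negative r, which occur in these data. The number of arrays limits the precision. Alternatives were array weights, an eggshell covariate, other limits on the mean, centring on the array median, a paired t-test, separate adjustment, each window alone, the 0 h pair, no replicate block and each time point left out. Figures were drawn with matplotlib 3.10.9. Sequences were not used here.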

Additional observations from a re-analysis of the deposited data

Results flagged for a closer look

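The 0 h arrays, which enter none of the comparisons, gave RF minus CF differences outside the range of the 12 later hours for 2 members. CG11892 was at -1.57, below a lowest later value of -1.15, and CG10514 was at -1.25, below a lowest later value of -0.82. With 1 array in each cohort at 0 h the difference was not tested. The share of all probe sets outside their later range at 0 h is not given here, so these 2 members are not set apart from other genes. Of the other family genes with a probe set of their own, CG9259 (-1.35), CG32195 (-0.75), CG6830 (-0.24) and CG31097 (-0.21) were also below their later ranges at 0 h, and CG14314 (0.49) was above its own.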

How the results depend on the processing

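The number of members lower in SF than in RF, 1 as reported, was 0 without the replicate block of shared hours, with no limit on the mean, with the paired t-test, with each comparison adjusted on its own and at 2 to 18 h alone, and 4 with array weights and at 24 to 72 h alone. It ran from 0 to 3 with 1 time point left out. The array weights did not fully converge. Members lower than CF were 0 at 2 to 18 h alone in both comparisons, and with 1 time point left out 3 to 4 in each. Without the replicate block 3 were lower in each. Other EcKL genes lower in RF minus CF, 2 as reported, were 0 at 2 to 18 h alone and 1 without the block or with the paired t-test, and ran from 1 to 3 with 1 time point left out. In SF minus CF, also 2, they were 0 at 2 to 18 h alone and 1 with separate adjustment, without the block or with the paired t-test, and ran from 1 to 2. In SF minus RF, 0 as reported, they were 2 at 24 to 72 h alone, 4 with array weights and 1 with the eggshell covariate, and ran from 0 to 1. Ecdysteroid probe sets called in RF minus CF, 2 as reported, were 1 with the 0 h pair added or without the block, 0 at 2 to 18 h alone and 4 at 24 to 72 h alone or with array weights (2 to 3 with 1 time point left out). In SF minus CF, 0 as reported, 1 was called at 24 to 72 h alone, and 0 to 1 with 1 time point left out. In SF minus RF, 0 as reported, 3 were called with array weights and 1 with centring or the eggshell covariate. CG10560's call in SF minus RF was lost in 13 of 22 alternatives, among them no replicate block (adjusted p = 0.251) and the paired t-test (adjusted p = 0.0643), and its difference stayed between -0.44 and -0.34 with 1 time point left out. CG10550's difference in SF minus RF turned to -0.018 at 24 to 72 h alone and was called in neither fit. The change of SF minus RF between the windows was called for 0 members in every alternative run. The causes were not tested. Shares of all probe sets called are not given for these alternatives, apart from 3.31% lower in SF minus RF at 24 to 72 h alone. With array weights calls in SF minus RF rose in the members, the other EcKL genes and the ecdysteroid genes alike. The counts with array weights therefore cannot be read as a result about the members. Each cohort has 1 array an hour, so all tests measure spread over hours of 1 set of flies. The array gives no count of molecules.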
